A study of Mus musculus with 30 samples.

Results

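The values described here are differences of differences: the effect of a vector carrying F11 in heart minus its effect in white adipose tissue, for every gene measured in both tissues. They come from 27 of the 30 RNA-sequencing libraries of the series. All were made from male C57BL/6J mice that received an adeno-associated virus of serotype 8 with either a GFP or an F11 insert (AAV8-GFP or AAV8-F11). Every mouse, controls included, was kept for 7 weeks on a high-fat diet (HFD) plus l-NAME, which inhibits nitric oxide synthases, and tissue was taken at 15 weeks of age. The groups held 6 GFP hearts, 7 F11 hearts, 7 GFP adipose samples and 7 F11 adipose samples. The labels give no promoter for either insert, no adipose depot and no time of day, and they tie no heart library to an adipose library. They also do not say that each library came from a separate mouse, so the spread behind each p-value is that between libraries and may be partly technical.

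The members were chosen in part from measured values. The GFP adipose library G-L140 and the F11 adipose library G-L142 were left out because they carried heart and epididymal RNA; L10, a further GFP heart library of the labels, was not analysed here. In G-L140 the summed level of 10 cardiomyocyte markers was 6868 counts per 1e6 counts of the library (CPM), against 25.6 to 138.7 CPM in the 14 adipose libraries kept. In G-L142 the summed level of 10 epididymis markers was 10180 CPM, against 0.564 to 27.6 CPM in those 14. The highest kept cardiomyocyte sum was in the GFP library G-L138, and the next was 57.5 CPM in G-L147. The highest kept epididymis sum was in the F11 library G-L143, and the next was 5.38 CPM in G-L133. In all, 639 genes stood more than 4 times above the highest kept adipose library in 1 or both of the left-out libraries. They held 20 of 20 sarcomere genes and 10 of 10 cardiomyocyte markers, and none of the 199 that could be tested was past the threshold with limma or edgeR. DESeq2 passed 4 of the 199 (Cyb561, Dsp, Myh6 and Wipf3); with limma the difference of the cardiac myosin heavy chain gene Myh6 was 0.58 (SE 0.318, adjusted p = 0.632). All genes of this set are given as description.

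F11 encodes coagulation factor XI, the precursor of a serine protease of the contact pathway that is made by hepatocytes and circulates in plasma. Serotype 8 vectors are widely used to express a gene in liver. The contrast asks for which genes the RNA level answered the vector differently in the 2 tissues. Heart muscle oxidises fatty acids and glucose for contraction, whereas white adipocytes store triglyceride and release it under hormonal control. Both tissues hold a circadian clock, vessels, fibroblasts and macrophages.

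F11 transcripts (chr8:45241174-45262031, GRCm38) were scarce in both tissues. The GFP hearts held 13 F11 counts in all, in 2 of 6 libraries, 11 of them in L2, which also had 325.7 CPM of 10 hepatocyte markers against 34.1 to 56.1 CPM in the other GFP hearts. The F11 hearts held 3 counts, in 2 of 7 libraries. At these depths a count of 0 allows up to 0.130 to 0.167 CPM in a heart library, which covers counting error only. The GFP adipose libraries had 0.911 ± 1.21 CPM (SD, n = 7), with a lowest of 0.0767, a median of 0.449 and a highest of 3.36 CPM. The F11 adipose libraries had 4.77 ± 3.72 CPM (SD, n = 7), with a lowest of 0.373, a median of 3.93 and a highest of 11.7 CPM. The groups overlapped, 6 of 7 F11 libraries lay above the GFP median, and p was 0.00991 (exact permutation test, two-sided, 3432 splits). The transcript was therefore higher with the F11 label in adipose tissue and could not check the label in heart. In GFP adipose tissue the most F11 was in G-L136 (3.36 CPM) and G-L137 (1.65 CPM), with 7815 and 3217 CPM of hepatocyte markers. In F11 adipose tissue it was in G-L146 (11.7 CPM) and G-L145 (6.64 CPM), with 4735 and 7895 CPM. G-L143 had 5.56 CPM of F11 with 1658 CPM of these markers. The 10 hepatocyte markers, which include Trf and Cyp2e1, summed to at least 1202 CPM in every kept adipose library. How much of that sum came from hepatocytes was not tested, nor was the part of hepatocyte RNA in the F11 values.

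Library totals, in units of 1e6 estimated counts, ran from 25.8 to 33.02 in heart and from 16.8 to 26.3 in adipose tissue. The tissues were labelled in accord with their markers: 10 cardiomyocyte markers summed to 67320 to 86960 CPM in heart, and 15 white adipocyte markers to 12890 to 24930 CPM in adipose tissue. Within heart, the cardiomyocyte sum was 67320 to 71760 CPM with GFP and 75500 to 86960 CPM with F11, with no overlap. All 10 markers had a heart change above 0, with a median of 0.07 on the log2 scale, and 0 were past the threshold. Among single genes tested, 1.06% had heart groups that did not overlap. Within adipose tissue, macrophage markers (15 genes) ran from 1431 to 4496 CPM with GFP and from 1199 to 4750 CPM with F11, the highest being G-L133 and G-L148. White adipocyte, endothelial and mural sums were the lowest of their group in the same pair of libraries. Hepatocyte markers (10 genes) reached 7815 CPM in the GFP adipose library G-L136, which also had the most F11 of its group, and 7895 CPM in the F11 adipose library G-L145. The part of these differences in the results that follow was not tested beyond the refits without G-L133 and G-L148, which are given beside the genes they touch. In bulk tissue, fewer cells of a type and less RNA per cell cannot be told apart.

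The F11 effect differed between heart and adipose tissue for 7 of 13813 genes tested, or 0.0507%, by limma with a separate spread for each tissue and a Benjamini-Hochberg adjusted p under 0.05. The difference was negative (lower with F11 in heart relative to adipose tissue) for Zfp395, Ypel2, Fam13c, Vstm4 and Baz2b, 0.0362% of genes. It was positive for Trib1 and Mid1ip1, 0.0145% of genes. In size these differences ran from 0.37 to 0.80 on the log2 scale. At an unadjusted p under 0.05 there were 1214 genes (8.79%), of which 465 were positive and 749 negative. The median difference over all genes was -0.009. With edgeR the count was 9 (0.0652%), which held 6 of the 7 and not Vstm4, and with DESeq2 it was 80 (0.579%). Both of these tools fit a single spread per gene over both tissues. Limma with one spread for both tissues gave 8.

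Precision differed between the tissues. The median standard error of an F11 effect was 0.076 in heart and 0.108 in adipose tissue, and that of their difference was 0.135. In the same fit 225 genes (1.63%) passed in heart, 115 of them higher (0.833%) and 110 lower (0.796%), whereas none (0%) passed in adipose tissue. The smallest adjusted p in adipose tissue was 0.193. There, 823 genes (5.96%) had an unadjusted p under 0.05, and edgeR called 5 and DESeq2 50. Of the 225 genes that changed in heart, 113 (50.2%) had an adipose effect of the same sign, against 50% of all genes tested. The difference between tissues itself passed for 6 of them. For the remainder, an effect past the threshold in heart and not in adipose tissue is not shown to differ between the tissues.

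**Figure D1:**
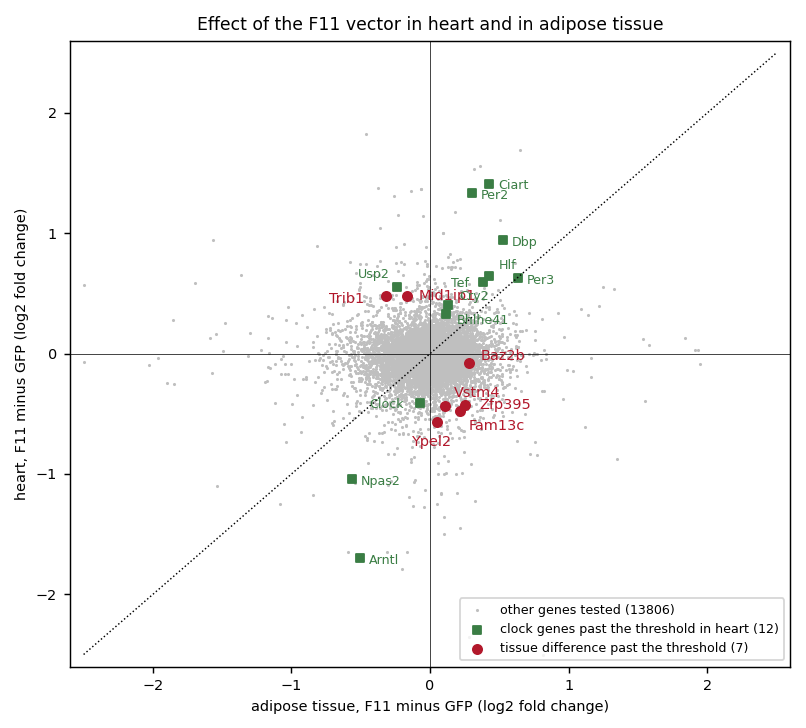
Each point is a gene tested, with its log2 fold change (F11 minus GFP) in adipose tissue on the x axis and in heart on the y axis, and the dotted line marks equal effects. Red circles are the 7 genes whose effects differed between tissues, green squares are 12 clock genes past the threshold in heart, and genes beyond the axis range are drawn at its edge. All green squares but Usp2 lie on the same side of 0 in both tissues, whereas Trib1 and Mid1ip1 lie above 0 in heart and below it in adipose tissue.

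Zfp395 (chr14:65358389-65398930) encodes a zinc finger protein. In heart its level had a lowest of 20.9, a median of 24.6 and a highest of 27.2 CPM with GFP, and 16.6, 17.9 and 19.1 CPM with F11. In adipose tissue the same values were 24.0, 27.3 and 31.2 CPM with GFP and 28.0, 31.9 and 36.01 CPM with F11. All 7 F11 hearts lay below every GFP heart, and all 7 F11 adipose libraries lay above the GFP median with some overlap of the groups. The log2 change was -0.43 (SE 0.0598) in heart and 0.25 (SE 0.079) in adipose tissue. The difference between tissues was -0.68 (SE 0.0991, adjusted p = 0.00342).

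Ypel2 (chr11:86936425-86993707) belongs to the yippee-like family of small zinc-binding proteins. Heart levels had a lowest, median and highest of 30.2, 34.2 and 36.1 CPM with GFP and of 19.3, 22.8 and 26.5 CPM with F11, so the heart groups did not overlap. Adipose levels were 31.8, 33.5 and 35.9 CPM with GFP and 32.2, 34.7 and 39.1 CPM with F11, and those groups overlapped over most of their range. Its log2 change was -0.57 in heart and 0.05 in adipose tissue, a difference of -0.62 (SE 0.0941, adjusted p = 0.00342). Of the 7 genes, Zfp395 and Ypel2 were the ones that stayed past the threshold under all 46 alternative analyses.

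Fam13c (chr10:70440481-70558736) and Vstm4 (chr14:32856756-32939491) were lower in F11 hearts without overlap of the groups. Fam13c had a lowest, median and highest of 10.6, 13.0 and 14.8 CPM in GFP hearts and of 8.05, 9.32 and 10.4 CPM in F11 hearts. In adipose tissue it had 11.5, 12.6 and 16.0 CPM with GFP and 13.9, 15.4 and 17.99 CPM with F11, and the groups overlapped. Its difference between tissues was -0.69 (SE 0.128, adjusted p = 0.0374), made of -0.47 in heart and 0.21 in adipose tissue. Vstm4, which encodes a membrane protein with an immunoglobulin-like domain, had 9.72, 10.6 and 11.1 CPM in GFP hearts and 6.89, 7.69 and 9.09 CPM in F11 hearts. Its adipose levels were 9.20, 11.4 and 13.5 CPM with GFP and 10.7, 12.4 and 13.3 CPM with F11. The difference between tissues was -0.54 (SE 0.103, adjusted p = 0.0421). Fam13c was past the threshold in 14 and Vstm4 in 6 of the 27 refits that leave out 1 library, with the direction kept in each. Vstm4 also missed it with edgeR, one spread for both tissues, unrounded counts, RLE size factors, TMM within each tissue, a filter over the 4 groups and no filter.

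Baz2b (chr2:59899363-60209839), which encodes a bromodomain protein of chromatin, was the only one of the 7 with the larger effect in adipose tissue. Its adipose levels had a lowest, median and highest of 31.8, 34.1 and 36.5 CPM with GFP and of 37.9, 41.3 and 45.8 CPM with F11, with no overlap. Only 13 genes (0.0941%) had adipose groups that did not overlap, against 1.06% of genes in heart. In heart Baz2b had 45.2, 48.3 and 51.5 CPM with GFP and 43.2, 44.5 and 51.0 CPM with F11, and these overlapped. Its log2 change was 0.28 in adipose tissue and -0.08 in heart (adjusted p = 0.391), a difference of -0.37 (SE 0.0713, adjusted p = 0.045). It was past the threshold in 4 of the 27 refits that leave out 1 library, and missed it with RLE size factors, TMM within each tissue, a filter over the 4 groups and no filter.

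Trib1 (chr15:59648350-59657099) encodes a pseudokinase that brings C/EBP transcription factors to the COP1 ubiquitin ligase. Heart levels had a lowest, median and highest of 17.3, 20.9 and 23.6 CPM with GFP and of 24.2, 29.02 and 30.4 CPM with F11, so every F11 heart lay above every GFP heart. Adipose levels were 22.8, 24.0 and 26.3 CPM with GFP and 15.8, 20.5 and 23.1 CPM with F11, where all 7 F11 libraries lay below the GFP median. The log2 change was 0.48 (SE 0.0705) in heart and -0.32 (SE 0.102) in adipose tissue. The difference of 0.80 (SE 0.124, adjusted p = 0.00342) was past the threshold in all 27 refits that leave out 1 library. It was no longer past it once G-L140, G-L142 or both were put back, where the adjusted p reached 0.204.

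Mid1ip1 (chrX:10715013-10719690) encodes a protein that binds acetyl-CoA carboxylase and promotes its assembly into filaments, a step in fatty acid synthesis. Its heart levels were the higher ones, with a lowest, median and highest of 69.1, 83.3 and 88.0 CPM with GFP and of 106, 110 and 131 CPM with F11. In adipose tissue they were 20.4, 23.6 and 32.2 CPM with GFP and 17.9, 22.1 and 25.3 CPM with F11, with wide overlap. The log2 change was 0.48 in heart and -0.16 in adipose tissue, and the difference was 0.64 (SE 0.12, adjusted p = 0.0374). Among the kept adipose libraries, G-L138 had the highest cardiomyocyte sum (138.7 CPM) and G-L143 the highest epididymis sum (27.6 CPM). Without G-L133 and G-L148, or without G-L138 and G-L143, Fam13c, Vstm4, Baz2b and Mid1ip1 missed the threshold and Zfp395, Ypel2 and Trib1 kept it. The part of other-tissue RNA in the calls was not tested beyond the refit without G-L138 and G-L143. The F11 hearts in which these genes moved also had the higher cardiomyocyte marker sums given above, and the part of that in the differences was not tested.

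**Figure D2:**
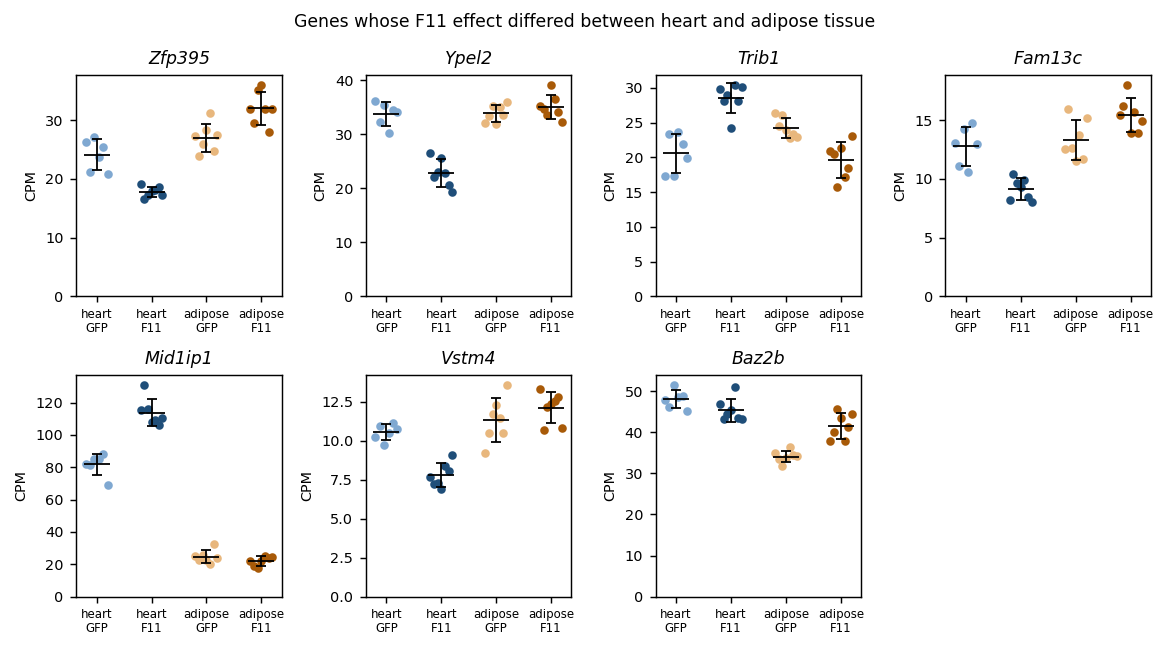
CPM of each library for the 7 genes whose F11 effect differed between tissues, with a panel per gene and the 4 groups along the x axis; bars give the mean and SD of 6 GFP hearts and 7 libraries in each other group. For 6 of the genes the heart groups are separate and the adipose groups overlap; for Baz2b the adipose groups are separate (31.8 to 36.5 against 37.9 to 45.8 CPM).

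A further 10 genes had an adjusted p between 0.05 and 0.1, and the 8 of them that the naming rule takes (adjusted p from 0.0606 to 0.0636) are given here as description. Spon2, which encodes a secreted matrix protein, had a lowest, median and highest of 2.98, 5.003 and 5.20 CPM in GFP hearts and of 0.585, 1.21 and 2.34 CPM in F11 hearts. In adipose tissue it had 3.79, 5.71 and 6.33 CPM with GFP and 2.87, 4.43 and 6.64 CPM with F11, and its difference between tissues was -1.59 (SE 0.326). Irs1, the insulin receptor substrate, had 37.4, 42.9 and 48.3 CPM in GFP hearts and 24.3, 28.5 and 32.7 CPM in F11 hearts, which did not overlap. Its adipose levels were 10.6, 13.0 and 15.8 CPM with GFP and 10.8, 16.2 and 24.2 CPM with F11, and the difference was -0.91 (SE 0.188). Tek, the endothelial receptor of the angiopoietins, had opposite signs in the tissues, at -0.18 in heart and 0.18 in adipose tissue. Arhgap28, a GTPase-activating protein (-0.85), and Rbm7, an RNA-binding adaptor of the nuclear exosome (-0.31), were also negative. Hhipl1 (1.11), the semaphorin receptor gene Plxna2 (0.45) and Naca (0.25), a subunit of the complex that binds nascent polypeptides, were positive.

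Naca had 640 to 676 CPM in GFP hearts and 709 to 804 CPM in F11 hearts, and its adipose levels were 145.9 ± 5.62 CPM with GFP and 142.5 ± 4.22 CPM with F11 (SD, n = 7 each). Plxna2 had 68.1 to 84.1 CPM in GFP hearts and 95.4 to 112 CPM in F11 hearts, with overlapping adipose groups of 46.9 to 57.9 and 42.6 to 60.1 CPM. For all 8 genes the heart effect itself was past the threshold, with adjusted p from 2.95e-06 for Plxna2 to 0.0190 for Tek. Weaker still, with adjusted p from 0.102 to 0.143, were Shroom2 (0.83), Usp2 (0.79), Midn (0.55), Ehd1 (0.47), which shares its counts with another gene ID, Slc35c2 (0.41), Kat6b (-0.34) and Gucy1b1 (-0.51).

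Among 25 pathway lists, 2 lists of the circadian clock loop had the largest median effects in heart, and they leaned the same way in adipose tissue. In this loop CLOCK and ARNTL (BMAL1) activate Per, Cry, Ciart, Dbp, Tef and Hlf through E-boxes, and PER and CRY proteins repress that activation; Arntl, Npas2 and Clock peak in the opposite phase. Of 14 genes driven by CLOCK and BMAL1, 9 were higher in F11 hearts past the threshold, against 0.833% of all genes tested, and the median log2 change was 0.48 in heart and 0.28 in adipose tissue. The sign was the same in both tissues for 13 of the 14, and 12 of 14 were positive in adipose tissue. Of 5 genes of the opposite phase, 3 were lower in F11 hearts past the threshold (Arntl, Clock and Npas2), against 0.796% of all genes, and 4 had a negative sign in adipose tissue, with medians of -0.41 in heart and -0.51 in adipose tissue. No gene of either list passed for the difference between tissues with limma or with edgeR. DESeq2 passed Usp2, Ciart, Arntl and Clock. At an unadjusted p under 0.05 there were 3 of 14 (21.4%) and 2 of 5 (40%), against 8.79% of all genes, all of them with the larger effect in heart. A further list, of clock kinases, ligases and other regulators, did not share this lean. Its 10 tested genes had medians of -0.015 in heart and 0.017 in adipose tissue, with the same sign in both for 4. None of them passed in heart.

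Arntl (chr7:113207465-113314126) had a lowest, median and highest of 13.3, 15.9 and 18.5 CPM in GFP hearts and of 3.41, 5.35 and 7.203 CPM in F11 hearts. In adipose tissue it had 4.80, 8.47 and 12.1 CPM with GFP and 3.07, 6.36 and 10.6 CPM with F11. The heart groups were far apart and the adipose groups overlapped, the highest adipose library of each group being G-L133 and G-L148, which also had the highest macrophage sums. The log2 change was -1.70 (SE 0.177, adjusted p = 2.25e-06) in heart and -0.51 (SE 0.251) in adipose tissue. The difference of -1.19 (95% interval -1.82 to -0.56) had an adjusted p of 0.192. Clock had a smaller difference, -0.34 (95% interval -0.51 to -0.16), from -0.41 in heart and -0.07 in adipose tissue. For Npas2, a paralog of Clock, the changes were -1.04 in heart and -0.56 in adipose tissue, and their difference was -0.48 (95% interval -1.33 to 0.38).

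Among the genes driven by CLOCK and BMAL1, Per2, a repressor of the loop, had a lowest, median and highest of 8.11, 11.5 and 15.8 CPM in GFP hearts and of 22.5, 28.1 and 39.05 CPM in F11 hearts. In adipose tissue Per2 had 14.7, 17.0 and 38.4 CPM with GFP and 15.7, 28.2 and 38.5 CPM with F11, nearly the same range in both groups. Its difference between tissues was 1.03 (95% interval 0.44 to 1.62). Ciart, another repressor, had 2.98 to 5.62 CPM in GFP hearts, 8.22 to 11.9 CPM in F11 hearts, 1.15 to 2.73 CPM in GFP adipose tissue and 1.58 to 3.26 CPM in F11 adipose tissue. For Ciart the log2 change was 1.41 in heart and 0.43 in adipose tissue, a difference of 0.98 (95% interval 0.38 to 1.59). Usp2, a deubiquitinating enzyme, was the exception in sign, at 0.56 in heart and -0.24 in adipose tissue.

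Per3, a further Per gene, had the same log2 change in both tissues. It had a lowest, median and highest of 25.1, 32.4 and 37.1 CPM in GFP hearts and of 39.9, 47.0 and 65.7 CPM in F11 hearts. In adipose tissue it had 20.1, 26.9 and 49.1 CPM with GFP and 30.6, 42.7 and 59.7 CPM with F11, with all 7 F11 libraries above the GFP median. That change was 0.63 in heart (adjusted p = 0.0158) and 0.63 in adipose tissue, and their difference was -0.01 with a 95% interval from -0.51 to 0.50. The output factor Dbp had changes of 0.94 and 0.52 (difference 0.42, interval -0.11 to 0.94). Its partners Tef (0.60 and 0.38) and Hlf (0.64 and 0.43) had intervals of the difference that likewise spanned 0. Cry2 (0.40 and 0.13) and Bhlhe41 (0.33 and 0.12), both repressors, were past the threshold in heart as well. These intervals are wide enough to hold effects that are equal, larger in heart or larger in adipose tissue.

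**Figure D3:**
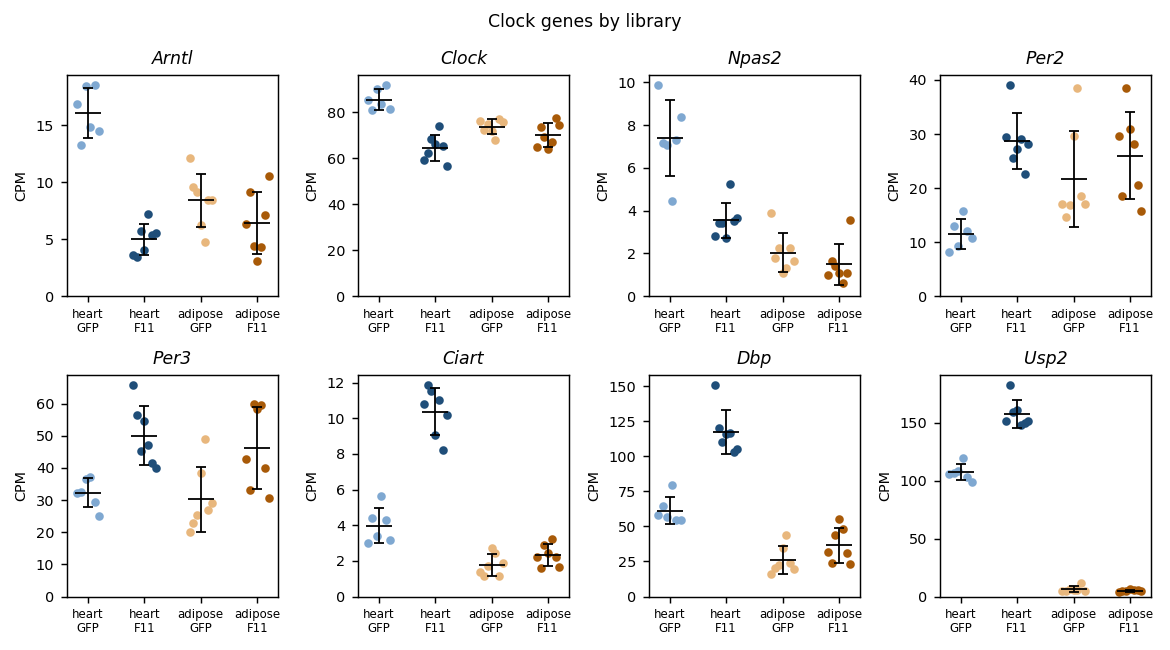
CPM of each library for 8 clock genes, with a panel per gene and the 4 groups along the x axis; bars give the mean and SD. The heart groups are separate for every gene shown but Npas2, whereas the adipose groups overlap, with Arntl spanning 4.80 to 12.1 CPM with GFP and 3.07 to 10.6 CPM with F11.

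For Ciart and Per3, with differences of 0.98 and -0.01, the bases before their start sites are shown because they carry different clock motifs. Both were chosen after their values were seen. The sequences are from RefSeq on GRCm38.p6, 250 bases before the start, 5′ to 3′ on the strand of the gene, with the motif in capitals. Capitals mark the E-box CACGTG in Ciart (chr3:95882229-95882478, minus strand) and the D-box TTATGTAA in Per3 (chr4:151044666-151044915, minus strand).
Ciart: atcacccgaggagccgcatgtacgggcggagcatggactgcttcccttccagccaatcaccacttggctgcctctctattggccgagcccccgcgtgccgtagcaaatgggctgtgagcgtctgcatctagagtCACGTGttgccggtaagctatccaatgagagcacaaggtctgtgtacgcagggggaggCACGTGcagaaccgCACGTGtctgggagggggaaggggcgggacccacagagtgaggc
Per3: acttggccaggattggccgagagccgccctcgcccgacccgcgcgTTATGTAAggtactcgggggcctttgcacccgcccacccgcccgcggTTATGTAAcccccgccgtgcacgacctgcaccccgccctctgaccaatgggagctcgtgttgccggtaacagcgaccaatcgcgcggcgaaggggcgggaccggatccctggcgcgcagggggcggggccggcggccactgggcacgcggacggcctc
The Ciart window held 3 E-boxes, beginning at -116, -58 and -44 from the start, and no D-box. The Per3 window held 2 D-boxes, at -205 and -158, and no E-box. Other clock genes did not follow this pairing of motif and difference. Tef and Bhlhe41 held an E-box with differences of 0.21 and 0.22, and Usp2 (0.79) and Arntl (-1.19) held none. A link between motif and difference was not tested.

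Windows from 250 bases before to 50 after the start were sought for the tested genes driven by CLOCK and BMAL1 or of the opposite phase. RefSeq held them for 16 of these 19 clock genes, 21 windows in all. On either strand an E-box lay in the windows of 5 of the 16 genes, a D-box (TTATGTAA or TTACGTAA) in 1 and a ROR element (TAGGTCA or TGGGTCA) in 2, Arntl and Nfil3. Over all 32851 mouse promoter windows the shares were 7.15% for the E-box, 1.06% for the D-box and 6.45% for the ROR element. Among the 7 genes whose effect differed between tissues, 5 had a window. The single match there was a ROR element at -138 in Baz2b. The motifs do not overlap each other as written, and a match describes letters only.

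Targets of the glucocorticoid receptor, the hormone-activated factor that also responds to the daily corticosterone rhythm, gave the largest positive differences among members of the pathway lists. Fkbp5, a chaperone partner of the receptor, had a lowest, median and highest of 14.04, 16.3 and 18.5 CPM in GFP hearts and of 17.5, 43.5 and 74.9 CPM in F11 hearts. In adipose tissue it had 43.9, 58.7 and 95.8 CPM with GFP and 39.1, 54.9 and 93.3 CPM with F11, so those groups shared their whole range. The F11 heart L31 lay within the GFP range and the other 6 lay above it. The change was 1.31 in heart (adjusted p = 0.00796) and -0.26 in adipose tissue, and the difference of 1.56 (95% interval 0.68 to 2.45) had an adjusted p of 0.226. Zbtb16, a zinc finger transcription factor, had 52.6, 66.6 and 81.8 CPM in GFP hearts and 81.7, 176 and 264 CPM in F11 hearts, the lowest again being L31. Its adipose groups, at 35.8 to 113 and 25.8 to 86.3 CPM, overlapped, and the difference was 1.49 (95% interval 0.68 to 2.30, adjusted p = 0.202). Without L31 both genes passed, with adjusted p = 0.038 for Fkbp5 and 0.0363 for Zbtb16. L31 was the F11 heart with the lowest value of each, so leaving it out raises their heart change. With all libraries DESeq2 passed both genes and edgeR passed neither.

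Of all genes tested, 8.79% had an unadjusted p under 0.05 for the difference, and 3.37% did so with a positive sign. Of the 14 glucocorticoid targets tested, 4 (28.6%) had one, all positive. Besides Fkbp5 and Zbtb16 these were the metallothionein genes Mt1 (0.82) and Mt2 (1.252), which bind metals. The median difference of the list was 0.03. Classical members lay near 0, with 0.09 for Tsc22d3, 0.04 for Klf9, 0.02 for Dusp1 and -0.01 for Klf15. Errfi1 (-0.61), Sgk1 (-0.39), Cdkn1a (-0.17) and Pdk4 (-0.15) were negative. Fkbp5 and Zbtb16 were the only members past the threshold in heart. Hif3a, which the hypoxia list holds, was at 1.54 in heart (adjusted p = 0.0211) and 0.32 in adipose tissue, where GFP libraries ranged from 0.828 to 8.06 CPM.

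**Figure D4:**
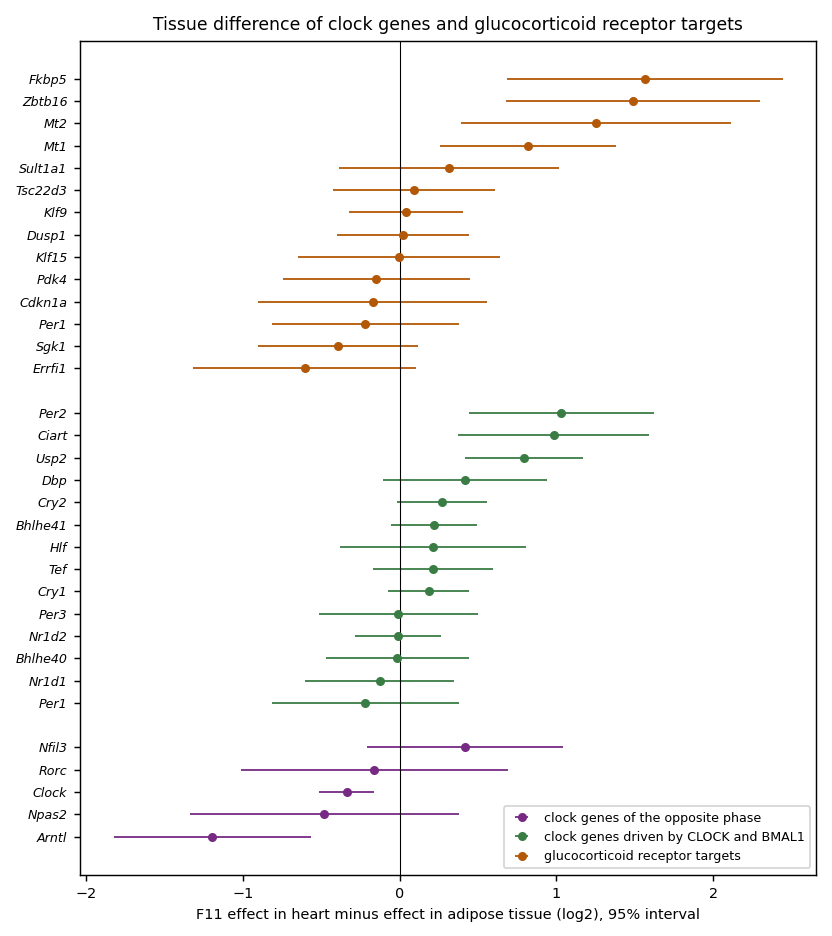
Difference in F11 effect, heart minus adipose tissue, on the log2 scale with its 95% interval for each tested member of 3 gene lists; positive values are to the right. Fkbp5, Zbtb16, Mt2, Mt1, Per2, Ciart and Usp2 have intervals above 0 and Clock and Arntl below 0, and none of these had an adjusted p under 0.05.

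Insulin signalling, vascular and BMP genes leaned negative, with few large single changes. Among 18 insulin signalling genes, 13 had a negative difference, the median was -0.12, and 6 (33.3%, against 8.79% of all genes) had an unadjusted p under 0.05, 4 of them negative. In heart Irs1 (-0.58) and Tbc1d4 (-0.28), a Rab GTPase-activating protein of glucose transporter traffic, fell. Pik3r1, the regulatory subunit of phosphoinositide 3-kinase, rose by 0.53 in heart and was at -0.02 in adipose tissue (difference 0.55, SE 0.182). DESeq2 passed Irs1 for the difference. These and the other list members named from here on without a threshold were chosen after their values were seen.

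BMP signalling runs from ligands through type I and type II receptors to SMAD1, SMAD5 and SMAD9. Of 29 such genes 23 were tested; 18 of them had a negative difference, the median was -0.21, and 9 (39.1%, against 8.79% of all genes) had an unadjusted p under 0.05, 8 of them negative. None passed with limma, edgeR or DESeq2. The ligand gene Bmp7 was low in all groups, at 1.67 to 2.39 CPM in GFP hearts, 1.51 to 2.68 CPM in F11 hearts, 0.887 to 4.18 CPM in GFP and 0.642 to 1.71 CPM in F11 adipose tissue. Its difference was 0.51 with a 95% interval from -0.19 to 1.20. The receptor genes Acvr2a (-0.24) and Acvr1 (-0.28) and the mediators Smad1 (-0.19, interval -0.35 to -0.03) and Smad5 (-0.19, interval -0.35 to -0.03) had negative changes in heart and positive ones in adipose tissue, none past the threshold. Smad1 had 16.3 to 17.8 CPM in GFP hearts and 14.5 to 16.6 CPM in F11 hearts. Of 12 tested BMP and SMAD targets, 11 had a negative difference, the median was -0.17, and 2 (16.7%) had an unadjusted p under 0.05. The named target genes Id1 and Id3, of which Id3 was the single positive member, gave differences of -0.02 (interval -0.62 to 0.58) and 0.09 (interval -0.21 to 0.38). Their changes were 0.26 and 0.18 in heart and 0.28 and 0.09 in adipose tissue.

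Nitric oxide acts through soluble guanylate cyclase, whose subunit genes had positive changes in adipose tissue and small negative ones in heart. Gucy1b1, the beta subunit, had a lowest, median and highest of 10.1, 12.2 and 16.4 CPM with GFP and of 14.6, 16.8 and 19.7 CPM with F11 in adipose tissue. In heart it had 19.0, 20.9 and 23.0 CPM with GFP and 17.8, 19.7 and 22.6 CPM with F11. The change was 0.44 in adipose tissue and -0.08 in heart, with an adjusted p of 0.107 for the difference of -0.51. The alpha subunit genes Gucy1a1 (-0.55) and Gucy1a2 (-0.72) pointed the same way. Of 15 genes of the pathway, 12 had a negative difference (against 52.1% of all genes) and 5 (33.3%, against 8.79%) an unadjusted p under 0.05, and DESeq2 passed Gucy1b1. Some pericyte markers of the mural list gave similar values: Kcnj8, a potassium channel subunit of pericytes, was at 0.66 in adipose tissue and -0.01 in heart (difference -0.67, SE 0.167), and its partner Abcc9 at 0.47 and 0.09. Of the 12 mural markers tested, 8 had a positive and 4 a negative sign in adipose tissue, and 9 had a negative difference. An unadjusted p under 0.05 for the difference was reached by 4 of them (33.3%), 3 negative and 1 positive. In adipose tissue the 12 mural markers summed to 714 to 992 CPM with GFP and 747 to 1089 CPM with F11, and the part of this in the guanylate cyclase values was not tested.

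Genes of chromatin, protein folding and glucose breakdown leaned by small amounts in 1 direction each. Of 28 histone lysine modifiers, 25 had a negative difference and 26 a positive sign in adipose tissue (against 49.6% of all genes), with medians of 0.11 there and -0.004 in heart. An unadjusted p under 0.05 was reached by 10 (35.7%), all negative. Over all genes it was reached by 8.79%, and by 5.42% with a negative sign. Among the 10 were the acetyltransferase gene Kat6b (-0.34, SE 0.0769) and Setd5 (-0.22, SE 0.0545). DESeq2 passed these 2. Of 20 unfolded protein response genes, 18 had a positive difference (against 47.9% of all genes) and 19 a negative sign in adipose tissue (against 50.4% of all genes), with medians of -0.15 there and 0.01 in heart. An unadjusted p under 0.05 for the difference was reached by 7 (35%), all positive. The share of all genes was 8.79%, or 3.37% with a positive sign. The endoplasmic reticulum chaperone Hspa5 had 351, 485 and 589 CPM with GFP and 295, 355 and 472 CPM with F11 in adipose tissue as lowest, median and highest. In heart it had 411 to 490 and 422 to 481 CPM, and its difference was 0.38 (SE 0.122, adjusted p = 0.317). Herpud1, which acts in disposal of misfolded proteins, rose by 0.52 in heart.

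Among 19 glycolysis genes, 15 had a positive difference and the median was 0.15. An unadjusted p under 0.05 was reached by 8.79% of all genes, or 3.37% with a positive sign. Of the glycolysis genes, 9 (47.4%) reached it, all positive. They included Pgam1 (0.29), Pfkp (0.39), Pfkl (0.30), Tpi1 (0.32) and Gapdh (0.22). Hexokinase gene Hk1 and the muscle mutase gene Pgam2 rose in heart, by 0.24 and 0.19, and 3 members of the list were among the genes set apart in the left-out libraries. Of 20 heat shock genes, 15 had a positive difference, with a median of 0.13, and 5 (25%) had an unadjusted p under 0.05, all positive. For all of these lists no member passed for the difference with limma or edgeR, and the median over all genes tested stood at -0.009, with 6623 of 13813 (47.9%) positive.

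**Figure D5:**
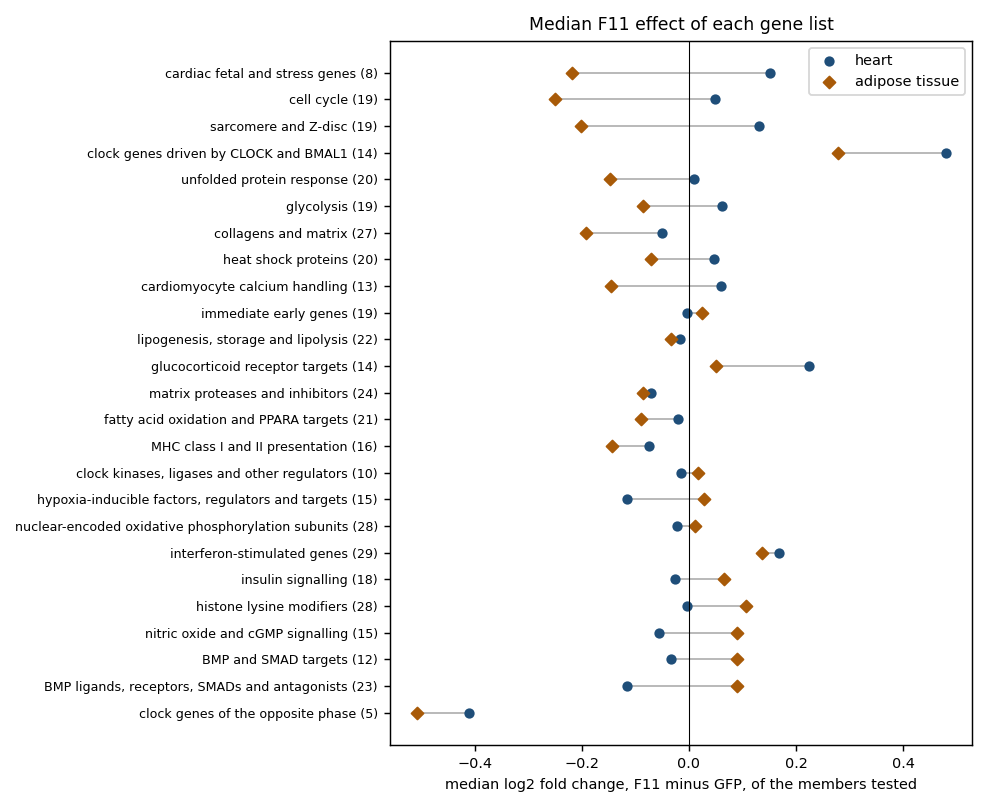
Median log2 fold change (F11 minus GFP) of the tested members of 25 gene lists, in heart (blue circles) and in adipose tissue (orange diamonds), ordered by the median difference between tissues, with the number tested in brackets. Clock genes driven by CLOCK and BMAL1 (0.48 and 0.28) and those of the opposite phase (-0.41 and -0.51) lie on 1 side of 0 in both tissues. Clock kinases, ligases and other regulators lie near 0 in both (-0.015 and 0.017). The BMP lists, insulin signalling and nitric oxide genes lie below 0 in heart and above it in adipose tissue.

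The remaining groups gave no call for the difference with limma or edgeR. None of 28 nuclear-encoded oxidative phosphorylation subunits reached an unadjusted p under 0.05, and their differences lay between -0.11 and 0.06. Likewise none of 29 interferon-stimulated genes did, although 24 were positive in heart and 23 in adipose tissue, with medians of 0.17 and 0.14. Fatty acid oxidation genes (1 of 21 at an unadjusted p under 0.05) had a median difference of 0.01, and lipogenesis, storage and lipolysis genes (2 of 22) one of 0.04. Dgat2, the last enzyme of triglyceride synthesis, rose by 0.27 in heart and was at -0.18 in adipose tissue, a difference of 0.45 (SE 0.129, adjusted p = 0.271). Of 27 collagen and matrix genes, 25 had a negative sign in adipose tissue, none past the threshold, with a median of -0.19 against -0.05 in heart; 21 had a positive difference, with a median of 0.13. DESeq2 passed Spon2 of this list, the one member with an unadjusted p under 0.05. Of 24 matrix proteases and inhibitors, 4 (16.7%, against 8.79% of all genes) had an unadjusted p under 0.05. All were negative, against 5.42% of all genes with that sign. The metalloprotease gene Adam19 fell by 0.73 in heart and was at -0.13 in adipose tissue. Of 19 cell cycle genes tested, 17 had a positive difference and 17 a negative sign in adipose tissue, with a median difference of 0.29 made of medians of 0.05 in heart and -0.25 in adipose tissue. The kinase gene Cdk2 was the one member of that list with an unadjusted p under 0.05, and its difference was negative, at -0.24 (adjusted p = 0.41). The members of lowest p were Klf2 (-0.55) among immediate early genes, Tapbp (0.16) in antigen presentation and the helicase gene Dhx58 (0.23) among interferon-stimulated genes, with adjusted p from 0.389 to 0.779. The 8 tested cardiac fetal and stress genes had a median difference of 0.56, with 7 positive and none at an unadjusted p under 0.05, and 7 members of that list were among the genes set apart. For the 19 tested sarcomere genes, all of them among the genes set apart, the medians were 0.13 in heart and -0.20 in adipose tissue. In adipose tissue the whole list summed to only 142.6 to 273.6 CPM with GFP (median 158.3) and 141.2 to 175.3 CPM with F11. The GFP adipose library G-L138 had 138.7 CPM of cardiomyocyte markers, and its part in these adipose values was not tested.

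Cell type markers gave no call for the difference with limma. The 15 macrophage markers had a median difference of 0.22 and 13 positive members, with medians of -0.07 in heart and -0.25 in adipose tissue, and none had an unadjusted p under 0.05. Mesothelial markers, which cover the surface of both organs, had the most negative median, -1.11, and the F11 hearts had 8.47 to 22.4 CPM against 17.6 to 36.8 CPM in the GFP hearts. White adipocyte markers had a median difference of -0.24 and endothelial markers of -0.11. DESeq2 passed the adipocyte lipid droplet gene Plin1, Tek, Kcnj8 and, among the genes set apart, Myh6.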

How the data were processed

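RNA was isolated with the miRNeasy kit, converted to mRNA libraries with a Nugen Universal Plus kit and read on a NovaSeq, as the labels' protocols state. The authors made estimated counts per gene with kallisto 0.46 and GRCm38.p6 (source: the submitters' processing notes) and deposited them unscaled. The annotation release, the strand setting and the step from transcripts to genes were not given in the sources used here. Overlapping, antisense and near-identical genes are therefore uncertain, and 304 tested IDs had the same counts as another.

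Groups came from the sample titles. Estimated counts were rounded and scaled by TMM (edgeR 4.0.16) over the 27 libraries. Genes were kept where filterByExpr kept them in heart and also in adipose tissue (13813 of 36558 IDs). They were tested with limma 3.58.1 in R 4.3.3: voom weights, 1 quality weight per tissue (1.58 in heart, 0.653 in adipose tissue), robust empirical Bayes, two-sided tests and Benjamini-Hochberg adjustment over all genes. Every adjusted p is from this test unless a tool is named, and intervals are 95%. A count model was used only as an alternative, because the contrast needs a spread that differs by tissue. The code was tested on simulated data. CPM is counts per 1e6 TMM-scaled counts. For the sums of cell type markers and for the genes set apart, the TMM factors were taken over 29 libraries, with G-L140 and G-L142 included. All other CPM values use the 27 libraries. No 2 libraries held identical counts. Coordinates are from GENCODE vM21 (GRCm38).

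Named genes were those past the threshold and the lowest p-values up to 10 in each direction, with a mean of at least 1 CPM in each tissue. The lowest p of each list with no call, F11, Bmp7, Smad1, Smad5, Id1 and Id3 were named without that limit. Clock and glucocorticoid genes past the threshold in heart were added after their values were seen. The members and the gene lists were chosen with earlier results of these data known. Alternatives were another scaling, filter, spread model or tool (DESeq2 1.42.0), the left-out libraries put back, and each library removed.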

Additional observations from a re-analysis of the deposited data

Results flagged for a closer look

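The tissue difference passed its test for 7 genes: Zfp395 (-0.68), Ypel2 (-0.62), Fam13c (-0.69), Vstm4 (-0.54), Baz2b (-0.37), Trib1 (0.80) and Mid1ip1 (0.64), on the log2 scale. The left-out libraries held RNA of other tissues: cardiomyocyte markers summed to 6868 CPM in G-L140 and epididymis markers to 1.018e+04 CPM in G-L142.

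In 19 of 232 groups (8.19%) of the 58 named genes, 1 library stood far from the others of its group; chance gives about 1 in 20. The high values in heart were Dbp in L31 (151 CPM), Per2 (39 CPM), Usp2 (182 CPM) and Mid1ip1 (131 CPM) in L33, Npas2 in L38 (5.24 CPM), Hspa5 in L9 (490 CPM), Pgam1 in L6 (68.8 CPM) and Bmp7 in L2 (2.39 CPM). The low values in heart were Trib1 (24.2 CPM) and Cdk2 (9.57 CPM) in L36, Smad5 (51.5 CPM) and Bhlhe41 (38.8 CPM) in L40, and Mid1ip1 in L9 (69.1 CPM). In adipose tissue the high values were Npas2 in G-L133 (3.88 CPM), Npas2 (3.55 CPM) and Rbm7 (48.7 CPM) in G-L148, Bmp7 (4.18 CPM) and Usp2 (11.9 CPM) in G-L138, and Sdhb in G-L136 (74.7 CPM). For the called genes among these, Trib1 remained past the threshold without any single library, whereas Mid1ip1 did so in 13 of 27 such refits.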

How the results depend on the processing

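Counts of genes below are for the tissue difference, positive and negative, where 2 and 5 passed in the analysis reported. They were 2 and 3 with RLE size factors, with TMM within each tissue and with a filter over the 4 groups. Library weights gave 14 and 29, separate fits combined 6 and 13, edgeR 4 and 5, DESeq2 37 and 43, and a threshold of 0.1 gave 5 and 12. Putting back G-L140 and G-L142 gave 0 and 2, G-L140 alone 1 and 2, and G-L142 alone 0 and 2. Leaving out G-L138 and G-L143, or G-L133 and G-L148, both chosen after seeing the data, gave 1 and 2 each. Leaving out 1 library gave 1 to 10 positive and 2 to 18 negative, the most without L31 and without G-L148. The share of genes called in heart, 1.63%, became 0.391% with one spread, 1.01% with separate fits, 0.442% with edgeR, 0.847% with DESeq2, 2.75% at 0.1, 0.662% with no filter (23704 genes tested) and 1.02 to 1.90% without 1 library, the lowest without L5. The 0 calls in adipose tissue became 4 with one spread, 8 with library weights, 5 with edgeR, 50 with DESeq2 and 0 to 1 without 1 library. The cause of these shifts was not tested. F11 in adipose libraries kept its direction and side of the threshold, at 2.71 to 4.59 CPM without 1 library.

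Of the named genes, 55 of 58 kept their direction throughout. The tissue difference of Per3 turned positive with RLE (0.0118), edgeR (0.0174), DESeq2 (0.0350), unrounded counts (0.0013), G-L140 and G-L142 put back (0.1707), G-L140 alone (0.1586) and L8 and L40 left out (0.0210). The tissue difference of Id1 turned positive with both put back (0.1261), G-L140 (0.0665) or G-L142 (0.0336), and that of Sdhb with both (0.0951) or G-L140 (0.0390). Without 1 library, Per3 lay between -0.1242 and 0.0805 and Id1 between -0.1703 and 0.1555. No paired analysis was possible because the groups share no replicate numbers. Totals of 16.8 to 33.02 (in 1e6 counts) limit genes of few counts.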
